A study of Homo sapiens with 16 samples.

Results

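The mRNAs of the small (40S) ribosomal subunit were followed in a study that maps reverse-transcription stops across polyadenylated RNA. A position belonged to the set when the deposited tables assigned it to a protein-coding transcript of 1 of 29 named genes: RPSA, RPS2, RPS3, RPS3A, RPS4X, RPS6, RPS7, RPS9, RPS10, RPS12, RPS13, RPS14, RPS15, RPS15A, RPS16, RPS18, RPS19, RPS20, RPS21, RPS23, RPS24, RPS25, RPS26, RPS27, RPS27A, RPS28, RPS29, FAU and RACK1. All 29 genes were found, with 12202 distinct positions of 719918 in the whole series. The number of listed positions per gene ran from 135 in RPS26 to 1082 in RACK1. No measured value was used to choose them.

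The study used wild-type HEK293T cells (a human embryonic kidney line), wild-type HCT116 cells, which derive from a human colorectal carcinoma, and HCT116-shDKC1-1, an HCT116 line with 1 short hairpin against DKC1. Dyskerin, the product of DKC1, converts U to pseudouridine within H/ACA small nucleolar ribonucleoproteins, where a guide RNA picks the target. Fragmented polyadenylated RNA was left untreated or treated with CMC, a carbodiimide that forms a stable adduct on pseudouridine, and part of the CMC-treated RNA was also treated with Terminator, an exonuclease that degrades RNA carrying a 5′ monophosphate. The 8 groups of 2 replicates comprised 3 treatments of HEK293T and of HCT116 (none, CMC alone, CMC followed by Terminator) and 2 of the knockdown line (none, CMC followed by Terminator). The knockdown line was not listed with CMC alone, and no Terminator library without CMC was listed for any line. Nothing in the labels places replicates in separate cultures, so every p-value measures only the spread between these libraries.

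Reverse transcriptase halts one base before a CMC adduct, and a U whose stops become more frequent with CMC is a candidate pseudouridine. Ribosomal protein mRNAs are among the most abundant messages of a growing cell. Most begin with a C followed by a run of pyrimidines, the 5′ terminal oligopyrimidine tract, through which their translation follows growth signals. The 40S subunit has a head and a body with its platform, and mRNA threads between them: RPS3 and RPS2 lie at the entry to the mRNA channel, RPS26 and RPS14 near its exit, and RACK1 on the outside of the head.

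Each table lists a position with its stop reads and the reads covering it, and the stop ratio is the first divided by the second. Library totals behind the authors' RPM (stop reads scaled to a common depth) ran from 8.65 M to 31.3 M reads. In all 10 tables the treated library had 5 or more stop reads at every listed position, the control had 1 or more, and the stop ratio of the control never exceeded that of the treated library, so the direction of a change against coverage was largely set by the listing and is not a result. At the 898 positions of the set listed in all HEK293T tables, the median covering reads per library were 200.1 to 303; at the 826 common to the Terminator tables of HCT116 and of the knockdown line they were 255 and 349 in the untreated HCT116 libraries and 142.5 and 161.5 with CMC and Terminator. Of the HCT116 line markers, KRT8, KRT18 and KRT19 were listed at 89, 32 and 30 positions in the HCT116 tables and 0 in HEK293T, while the HEK293T marker VIM was listed at 65 in HEK293T and 0 in HCT116. The HCT116 markers EPCAM, CDH1, CDH17, KRT20, LGALS4, TSPAN8 and CEACAM5 had no position in either line. Nor did the HEK293T markers NEFL, NEFM, INA, PAX2, SOX11, GATA3, ENO2 and MAP1B. No position of DKC1 was common to the Terminator tables of HCT116 and of the knockdown line, so the depletion itself could not be tested.

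Ribosomal protein genes have many processed pseudogenes, and 25.1% of the positions with 31 deposited bases (2856 of 11397) had the same 31 bases as a position of another listed gene. Pseudogenes held 98.0% of those partner positions. The share was 67.3% in RPS3A, 59.6% in RPS10, 58.7% in RPS2 and 56.1% in RPSA, and 0.295% in RACK1 and 2.15% in RPS21. Reads were counted whole in the Terminator tables of HCT116 and the knockdown line and in fractions elsewhere, so values at shared sequences are uncertain, and they are marked as shared where named.

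The sequences below are 21 bases of mRNA around 7 U positions on which the comparisons turn, taken from the deposited tables (hg38). They are written as DNA, 5′ to 3′ along the mRNA, and the capital marks the U at which stops were counted.

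RPS7, chr2:3580160-3580180, plus strand: caagcgaaatTgtgggcaaga
RPS24, chr10:78035392-78035412, plus strand: accgactactTcagaggaaac
RACK1, chr5:181243767-181243787, minus strand: tgacccttcgTggcaccctca
RPSA, chr3:39410952-39410972, plus strand (shared): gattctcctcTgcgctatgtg
RPS10, chr6:34425122-34425142, minus strand (shared): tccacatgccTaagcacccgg
RPS27, chr1:153991581-153991601, plus strand (shared): ccacggtcttTagccatgcac
FAU, chr11:65121609-65121629, minus strand (shared): ctggagggcaTtgccccggaa

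CMC alone was compared with no treatment to ask whether any U of these mRNAs stopped reverse transcriptase more often after the adduct was formed. No position of the set was called by edgeR's quasi-likelihood test, in either line and by either scale, where a call needed a Benjamini-Hochberg adjusted p under 0.05 and a change of 2-fold or more. The scales were stop reads per library total and stop reads against covering reads. In HEK293T, 0 of 309 tested U and 0 of 409 other bases were called against coverage, where 3.39% of all tested U and 0.111% of other bases of the series were. At an unadjusted p under 0.05, 11 U and 9 other bases were higher and 0 lower. By library total, where 1.11% of all tested U and 0.0111% of other bases were called, 6 U and 6 other bases were higher at that unadjusted p.

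HCT116 gave the same count with CMC alone. Of 216 tested U and 487 other bases, 0 were called against coverage, though 1 U, at 39435917 of RPS16, was called without untreated replicate 1 (log2 change 1.5 ± 0.21, adjusted p by edgeR 0.0147, in a fit without the replicate block), beside 4.45% of all U and 0.528% of other bases. At an unadjusted p under 0.05, 18 U and 22 other bases were higher against coverage, and 13 U and 22 other bases by library total, where the called share of all U was 1.22% and of other bases 0.0339%. DESeq2, run on stop reads with its own size factors, called 0 positions of the set in either line and found 0 at an unadjusted p under 0.05. Calls against coverage were also few among U of all protein-coding transcripts outside the set, large-subunit mRNAs included: 1 of 3075 in HEK293T and 4 of 2346 in HCT116.

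The U of the set with the lowest adjusted p after CMC alone, in either line, lay in the coding sequence of RPS24, a protein of the subunit body. Its stop ratio at position 78035402 of chromosome 10 was 2.68% and 2.85% in the untreated HEK293T libraries and 8.85% and 7.31% with CMC. Both CMC values were above both untreated values, from 11 and 17 stop reads against 5 and 6, in a direction that the listing largely set. The log2 difference against coverage was 1.53 ± 0.23 (SE, n = 2 a group), with an adjusted p by edgeR of 0.0799. Testing required 10 stop reads in 2 libraries, so this U entered the test through treated libraries alone.

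With Terminator added to CMC, positions were called in all 3 cell populations, at A, C and G as well as at U. In HEK293T, 34 of 309 U (11%) and 52 of 409 other bases (12.7%) had more stops against coverage than without treatment and were called, beside 17.8% of all tested U and 8.79% of all other bases (12.3% of any base). Over the series the share was thus higher at U than at other bases, and in the small-subunit mRNAs it was not. The count of 86 rested on single libraries, with 14 called without replicate 2 of CMC with Terminator, 17 without untreated replicate 2 and 37 without untreated replicate 1. The median log2 change against coverage was 0.60 over the set and 0.53 over all tested positions. The large-subunit mRNAs had 18.4% of U and 13% of other bases called.

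By library total, 44 U and 78 other bases of the set were called higher in HEK293T, beside 30.7% of all U and 35.2% of all other bases (33.5% of any base); 1 of the set was lower, as were 0.0202% of all. This split rested on the scaling: with TMM, which sets the bulk of positions level, 2 positions of the set were higher and 8 lower, because the scaling moved the median of all tested positions from 0.82 to 0.02 on the log2 scale. The set's median went from 0.59 to -0.21, below that of all positions on both scalings. Against CMC without Terminator, 4 U and 9 other bases were higher against coverage and 1 was lower (any base called higher in the series, 0.897%; 1.25% of U and 0.668% of other bases; any base called lower, 0.00675%). By library total 14 U and 40 other bases were higher and 1 lower, where 23.6% of all positions were higher (18.1% of U, 27.1% of other bases) and 0.121% lower, and with TMM 1 was higher and 30 lower (median of all positions 0.68 without and -0.00 with TMM).

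HCT116 had more calls than HEK293T, and more at A, C and G than at U. With CMC and Terminator, 95 of 312 U (30.4%) and 179 of 390 other bases (45.9%) were called against coverage, all higher, beside 27% of all U and 23.5% of all other bases (24.8% of any base). The called share was 42.5% at A, 51.4% at C and 45.3% at G. The large-subunit mRNAs had 42.9% of U and 39.4% of other bases called, and the further 5′ terminal oligopyrimidine mRNAs 28.7% and 33.9%. All protein-coding mRNAs outside the set, with both of these lists included, had 30.1% and 32.2%. The total of 274 became 160 without replicate 2 of CMC with Terminator and 176 without untreated replicate 2. The median log2 change was 0.81 at U and 1.01 at other bases of the set and 0.64 over all positions. Covering reads moved with this result: at the listed positions of the set their median was 255 and 349 in the untreated libraries and 142.5 and 161.5 with Terminator, and the part of coverage in the result was not tested.

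Fewer positions were called in HCT116 when stop reads were set against library total. There 33 U (10.6%) and 97 other bases (24.9%) were higher and 0 lower, beside 20% of all U and 29.4% of all other bases (26% of any base; 0.0803% were called lower). With TMM the set held 57 higher and 56 lower positions, as the median of all positions moved from 0.45 to -0.04. The filter of 10 stop reads in 2 libraries could be met through the Terminator libraries alone, so that a position could enter for being high there. This held for 139 of the 702 tested positions in the joint fit of HCT116 and the knockdown line, with 92 of the 274 calls against coverage and 58 of the 130 by library total in HCT116, and for 132 of 718 in HEK293T, with 30 of the 86 and 49 of the 122 calls. Among the positions described below it held for those of RPS7, FAU, RPS14, RPS2, RPS9 and RPS3A in the joint fit and for RPS18 in HEK293T. Both untreated HEK293T libraries were under 10 stop reads at 148 of the 718, with 37 of the 86 and 58 of the 122 calls. Both untreated HCT116 libraries were so at 133 of the 702, with 90 of the 274 and 62 of the 130 calls. Restricting the count against coverage to positions whose 31 bases no other listed gene had left 127 of 350 tested positions in HCT116 and 52 of 572 in HEK293T.

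**Figure D1:**
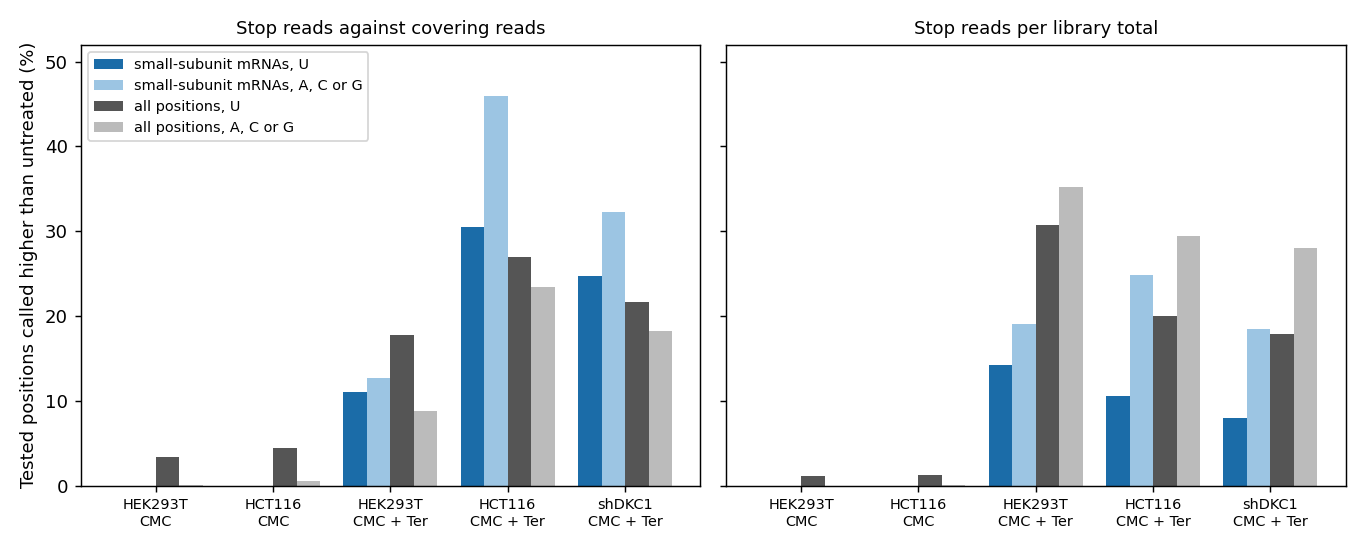
Share of tested positions called higher than untreated (percent, edgeR, adjusted p under 0.05 and fold of at least 2), at U and at A, C or G, for the small-subunit mRNAs (blue) and all positions of the series (grey), against covering reads (left) and per library total (right); Ter is Terminator. With CMC alone the blue bars are at 0; with Terminator in HCT116 against coverage they reach 30.4% at U and 45.9% at other bases.

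The base next to the called A, C and G positions was looked at for a U. In HCT116, 39.5% of the called A, C and G positions had a U directly before or after them, and 39.8% of the tested ones did. In HEK293T the shares were 26% and 35.4%.

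Calls were spread over the mRNAs of the set. In HCT116, 28 of 29 genes had at least 1 position called against coverage, beside 44 of 45 large-subunit genes and 875 of all 1657 genes with a tested position; the exception was RPS23, with 2 tested positions. RPS2, at the mRNA entry channel, had the most tested positions and was called at 13 of 48 U and 24 of 83 other bases. RPSA, the 40S protein also known as the laminin receptor precursor, was called at 12 of 33 U and 11 of 26 other bases, and RACK1, a scaffold protein, at 9 of 24 U and 14 of 25 other bases. The calls of RPS15 and RPS9 were all at other bases: 18 of 28 with 0 of 5 U in RPS15, and 10 of 13 with 0 of 1 U in RPS9. In the knockdown line RPS23 and RPS29 had no call.

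In HEK293T, 24 of 28 tested genes had a call, beside 39 of 47 large-subunit genes and 399 of all 832. RPS9, RPS25, RPS27 and RPS29 had none. No position of RPS26 passed the filter on stop reads. RPS3 had the most called U, 6 of 38, and RACK1 had 4 of 51. RPS2 had 0 of 20 U and 6 of 47 other bases called.

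Genes for proteins of the head and of the body and platform were counted apart. In HCT116, 135 of 340 positions in the 13 head genes (39.7%) and 139 of 362 in the 16 body and platform genes (38.4%) were called against coverage. HEK293T had 40 of 372 (10.8%) and 46 of 346 (13.3%), and the knockdown line 96 (28.2%) and 107 (29.6%). By library total the head had the lower share in all 3: 16.2% against 20.7% in HCT116, 15.6% against 18.5% in HEK293T and 10% against 17.4% in the knockdown line. At U by library total the shares in HCT116 were 6.54% and 14.5%. No difference between the regions was tested.

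**Figure D2:**
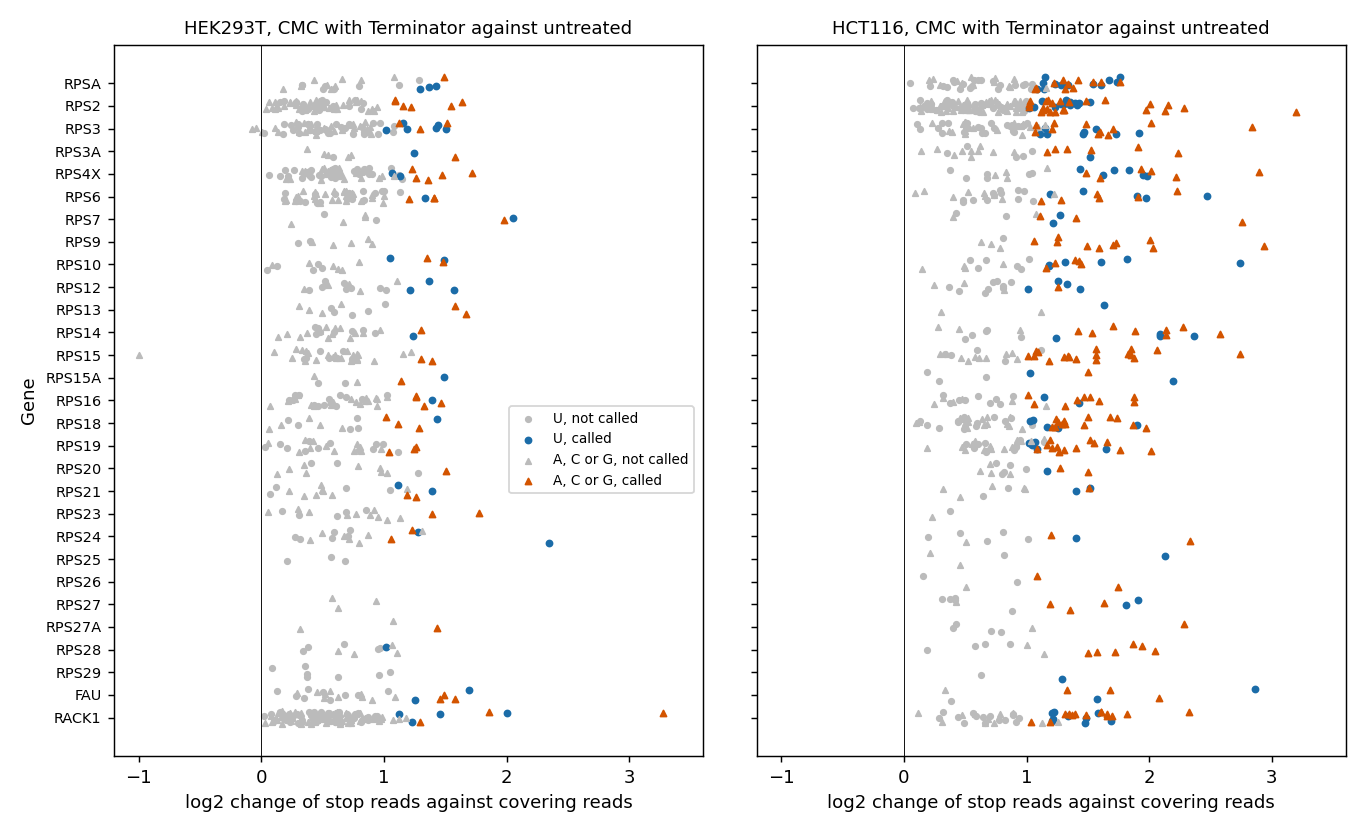
Each point is a tested position; the horizontal axis is the log2 change of stop reads against covering reads with CMC and Terminator over untreated in HEK293T (left) and HCT116 (right), and rows are genes. Called positions are coloured, circles for U and triangles for A, C or G. The RACK1 triangle at 3.27 and the RPS15 triangle at -0.99 on the left are positions whose untreated counts differed between deposited tables; in HCT116 called triangles outnumber called circles, 179 to 95.

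The 2 points farthest from the rest in HEK293T came with a mismatch between tables. The same untreated HEK293T libraries accompany both the CMC and the Terminator tables, and at 17 of 4705 pairs of a position and a library the counts differed. At position 181242174 of RACK1 the untreated libraries had 25.5 and 29 stop reads of 531.5 and 577 covering reads in the CMC tables, used in the fit, and 5 and 4 of 17 and 18 in the Terminator tables, where the treated libraries had 52.9% and 46.6% stops. Set beside its own table, the untreated stop ratio there was thus 29.4% and 22.2%, not 4.80% and 5.03%. Position 1440241 of RPS15 was the only one called lower against coverage (-1.28 ± 0.18 against CMC, adjusted p by edgeR 0.0187), and RACK1 position 181242174 the only one called lower by library total. Without the 13 such positions the HEK293T counts with Terminator against no treatment were 84 against coverage and 121 by library total, with 0 lower.

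Among positions tested in both lines, 72 were U. HEK293T called 13 of them against coverage and HCT116 23, and 10 were called in both, 76.9% of the first and 43.5% of the second. Over all 2151 U tested in both lines the shares were 83.6% and 59.9%. Of 77 other bases tested in both, 25 and 44 were called and 21 in both (84.0% and 47.7%), beside 70.4% and 30.9% over all 2932. The 10 U lay in RPS3 and RPSA (2 each), RACK1 (2), and RPS4X, RPS7, RPS10 and RPS12 (1 each).

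At the RPS7 U (position 3580170 of chromosome 2, coding sequence), the stop ratio in HEK293T was 5.96% and 7.0% untreated, 13.1% and 9.12% with CMC, and 23.6% and 29.9% with CMC and Terminator. In HCT116 it was 8.11% and 6.29% untreated and 14.3% and 20.7% with CMC and Terminator. In the knockdown line the values were 8.96% and 5.06%, and 19.3% and 11.9%. Treated and untreated libraries did not overlap in any of the 3 populations, in a direction that the listing largely set. In HEK293T the CMC libraries lay between the others. The log2 change against coverage with Terminator was 2.05 ± 0.24 in HEK293T (SE, adjusted p by edgeR 0.00242). It was 1.27 ± 0.35 in HCT116 and 1.15 ± 0.34 in the knockdown line. There the position passed the filter through the Terminator libraries alone, so no p-value is given. RPS7 is a body protein whose gene is among those mutated in Diamond-Blackfan anaemia. The next base, a G at position 3580171, read 3.57% and 2.74% untreated in HCT116 against 20.3% and 23.0% with Terminator. Its log2 change was 2.76 ± 0.31. It too passed that filter through the Terminator libraries alone.

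RACK1 showed a similar pattern at a U of its coding sequence at position 181243777. HEK293T stop ratios were 6.08% and 3.48% untreated, 6.45% and 5.82% with CMC, and 13.3% and 12.9% with CMC and Terminator. The rise was seen with Terminator: CMC alone overlapped the untreated values. HCT116 went from 5.14% and 4.91% to 19% and 11.3%, and the knockdown line from 6.80% and 4.05% to 14.4% and 8.02%. The log2 change against coverage was 1.46 ± 0.16 in HEK293T and 1.48 ± 0.24 in HCT116, with adjusted p by edgeR of 0.00161 and 0.000264.

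In RPSA, at the shared U 39410962, HEK293T had 4.85% and 6.44% untreated, 8.89% and 8.49% with CMC, and 13.9% and 12.7% with Terminator. HCT116 had 2.93% and 2.01% against 8.57% and 5.51%. Groups did not overlap in either line, in a direction that the listing largely set. The log2 changes with Terminator were 1.29 ± 0.21 and 1.54 ± 0.38 (adjusted p by edgeR 0.0392 and 0.00597). RPS12, a protein of the beak of the head, had at its shared U 132815049 of chromosome 6 6.91% and 5.23% untreated, 8.0% and 5.50% with CMC and 11.9% and 15.3% with Terminator in HEK293T, and 10.4% and 7.40% against 20.5% and 23.2% in HCT116.

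The RPS24 U shown among the sequences read 17.9% and 11.2% with Terminator in HEK293T, a log2 change of 2.35 ± 0.21 over untreated (adjusted p by edgeR 0.000733). Its HCT116 values were 6.51% and 6.64% untreated and 12.3% and 17.2% with Terminator. It was not in every knockdown table and was not tested in HCT116.

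The 2 largest changes at U in HCT116 lay in sequences that other listed genes share. FAU encodes a ubiquitin-like protein fused to ribosomal protein S30, and its U at 65121619 had stop ratios of 8.14% and 0.709% untreated (7 of 86 and 1 of 141 reads) and 25.0% and 28.9% with Terminator. The log2 change in HCT116 was 2.86 ± 0.48. The position passed the filter there through the Terminator libraries alone, so no p-value is given. HEK293T had 6.29% and 4.68% untreated, 11.2% and 7.39% with CMC and 8.78% and 10.2% with Terminator, where the change of 0.79 ± 0.24 was not called.

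RPS10, a head protein near the mRNA entry, had a U at 34425132 with 2.12% and 3.78% in untreated HCT116 and 20.0% and 22.2% with CMC and Terminator. The knockdown line had 5.56% and 5.85%, and 16.1% and 16.1%. Treated libraries were above untreated ones in both, a direction that the listing largely set. The log2 changes were 2.74 ± 0.22 and 1.48 ± 0.21 (adjusted p by edgeR 4.7e-07 and 9.24e-05).

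RPS18 had a U that read higher with Terminator in HEK293T than in HCT116. At position 33272687 of chromosome 6, HEK293T went from 7.17% and 6.42% to 15.3% and 21.5% with Terminator, a log2 change of 1.43 ± 0.20. This position passed the HEK293T filter through the Terminator libraries alone, so no p-value is given. HCT116 had 3.59% and 4.41% untreated and 3.90% and 4.90% with Terminator, a change of 0.13 ± 0.26. The difference between the lines was not tested, since they were fitted separately.

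Over the set, the median stop ratio with CMC and Terminator was somewhat higher at U than at other bases: 6.90% and 6.73% against 5.55% and 5.54% in HEK293T, and 8.12% and 7.24% against 6.74% and 6.38% in HCT116. The untreated libraries had the same order, with 4.42% and 4.05% against 3.85% and 3.44% in HEK293T. Single positions at A, C and G reached high ratios too. RPS4X, the X-linked copy of a body protein, had at the shared A 72273324 9.53% and 7.27% untreated, 12.8% and 7.97% with CMC and 18.8% and 25.8% with Terminator in HEK293T. HCT116 had 8.86% and 9.80% against 29.2% and 28.4%, a log2 change of 1.60 ± 0.18 (adjusted p by edgeR 1.12e-05). In RPS14, a platform protein near the mRNA exit, a U at 150445667 read 3.14% and 1.86% untreated against 11.6% and 13.4% with Terminator in HCT116. The C beside it at 150445668 read 2.36% and 2.04% against 10.6% and 15.5%. The RPS14 positions passed the filter through the Terminator libraries alone, so their calls are not a result.

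The largest log2 change of any base of the set in HCT116, 3.20 ± 0.71, was at a G of RPS2 (position 1964592). It rested on 1 and 1 stop reads untreated and 5 and 14 with Terminator, at stop ratios of 0.339% and 0.227% against 1.75% and 3.48%. A G of RPS9 at 54207538 followed, with 1.37% and 2.63% against 18.2% and 18% (2.94 ± 0.46), in a protein of the subunit body. Both positions passed the filter through the Terminator libraries alone, so no p-value is given for them.

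Sequence contexts of known standalone pseudouridine synthases were rare among the tested U. PUS7 is known for a context searched as TNTAA or TNTAG on the mRNA strand, with the modified U just before the A. It was found at 3 of 295 U of the set in HEK293T (1.02%; 0.948% of U in all tested mRNA positions) and at 1 of 308 in HCT116 (0.325%; 1.09%). The HEK293T positions, in RPS4X, RPS6 and RPS23, were not called, with log2 changes of 1.06 ± 0.30, 0.74 ± 0.19 and 0.61 ± 0.19 with Terminator. The HCT116 position was the U of RPS27 shown above, which read 1.92% and 4.29% untreated and 13.4% and 11.5% with Terminator, a log2 change of 1.91 ± 0.31 (adjusted p by edgeR 0.000221), in a shared sequence. The TRUB1 context GTTCNANNC was found at 2 U of the set in HEK293T and 0 in HCT116, and neither of the 2 was called. A match is a description of letters and shows no enzyme.

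The first bases of these mRNAs were examined because Terminator acts from RNA 5′ ends. RefSeq starts (GRCh38.p14) were at hand for 26 of the 29 genes, without RPS2, RPS15A and RPS20. Of the 26, 20 (76.9%) had a start with C followed by further pyrimidines to a run of at least 5, as did 73.7% of 38 large-subunit genes and 5.14% of all 27305 genes with a start. The first 20 bases are shown for 6 genes with such a run and for RPS4X and RPS28, whose RefSeq starts have none, with the initial pyrimidine run in capitals. Starts other than those of RefSeq were not examined. In RPS4X a pyrimidine run follows the U at 72277220, downstream of the RefSeq start.

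RPS19: CCCTTTCCCCTggctggcag
RPS24: CTCTTTTCCTCCTTggctgt
RPS13: CCTTTCgttgcctgatcgcc
RACK1: CTCTCTTTCactgcaaggcg
RPS14: CTCTCTTTCCggtgtggagt
RPS27: CCTTTCCggcggtgacgacc
RPS4X: aatttctacgcgcaccggaa
RPS28: actcctctccgccagaccgc

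Stop reads near the start were summed over the listed positions and set against library totals. Listing required 5 or more stop reads in the treated library and a stop ratio not below the control, and each table lists other positions, so the ratios describe these positions, are no measure of a rise and were not tested between lines. Over the last 6 bases up to the one before the start (-5 to 0, where 1 is the first base), summed RPM were 6.28 and 4.48 times the untreated ones in HCT116, 6.46 and 6.09 times in the knockdown line and 2.12 and 3.46 times in HEK293T. With CMC alone the ratios were 0.973 and 1.07 in HEK293T and 1.09 and 0.932 in HCT116. The sums covered 28 and 30 listed positions in the HCT116 Terminator tables and 16 and 29 in those of HEK293T. From 21 to 50 bases the ratios were 3.05 and 2.39 in HCT116, 2.97 and 2.96 in the knockdown line, and 1.90 and 1.91 in HEK293T.

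Few positions there could be tested apart from the level in the Terminator libraries. From 10 bases before the start to 20 after it, 12 positions passed the filter in HCT116 and the knockdown line, 9 of them through the Terminator libraries alone, and 13 passed in HEK293T, 4 of them so. No count of calls is therefore given. RPS19 is described with a test because its untreated libraries passed the filter by themselves. It was still picked for its many stop reads with Terminator, so its p-value describes a picked position.

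RPS19, the gene most often mutated in Diamond-Blackfan anaemia, had the most stop reads there. At the G at 41860252 of chromosome 19, listed as position -2, stop reads were 13 and 19 untreated and 92 and 92 with Terminator in HCT116, and 18 and 18 against 103 and 137 in the knockdown line. Covering reads were 37 and 57 untreated and 189 and 176 with Terminator in HCT116. The log2 change was 2.85 ± 0.19 by library total (adjusted p by edgeR 5.67e-07; 2.37 with TMM) and 0.57 ± 0.21 against coverage, which was not called (0.057).

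RPS13, in the subunit body, had at its U at 17077670, position -2, 2 and 2 stop reads untreated and 21 and 21 with Terminator in HCT116, and 5 and 3 against 26 and 34 in the knockdown line. It passed the filter through the Terminator libraries alone, and no test is given for it. Because it entered for being high with Terminator, the separation of its groups is not a result.

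**Figure D3:**
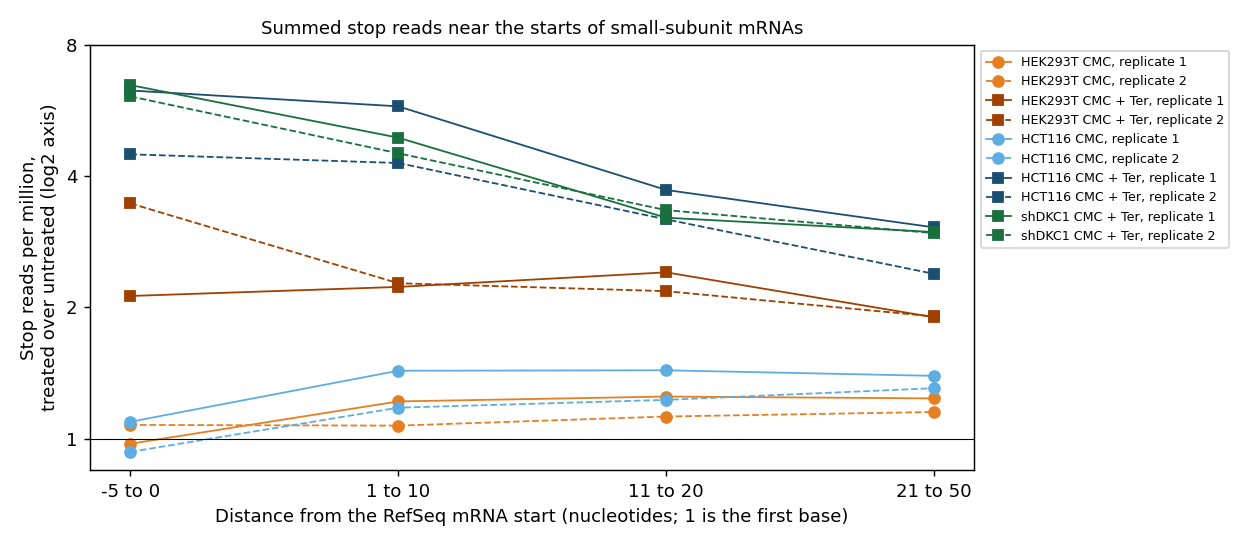
Summed RPM of stop reads at listed positions of the small-subunit mRNAs, treated over untreated (log2-spaced axis), in 4 distance ranges from the RefSeq start (nucleotides), with 1 line per replicate. HCT116 and knockdown libraries with Terminator run from 4.48 to 6.46 at -5 to 0; libraries with CMC alone stay between 0.932 and 1.43.

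The knockdown line was compared with HCT116 to ask whether stops in these mRNAs depend on DKC1. In the knockdown line with CMC and Terminator, 77 of 312 U (24.7%) and 126 of 390 other bases (32.3%) were called against coverage, beside 21.7% and 18.2% of all (19.5% of any base). By library total 25 U and 72 other bases were higher and 1 lower (17.9% and 28% of all called higher, 24.3% of any base, and 0.176% lower), and with TMM 51 were higher and 60 lower, as the median of all positions moved from 0.39 to -0.05. HCT116 and the knockdown line were fitted in one model, each against its own untreated libraries. They had 52 U in common among the calls against coverage, 54.7% of those in HCT116 and 67.5% of those in the knockdown line, beside 62.4% and 77.4% over all tested U.

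The test of the difference between the lines in their response to CMC with Terminator called 0 of 702 positions of the set on either scale (edgeR), beside 0.0115% of all positions called lower against coverage, and DESeq2 called 0 and found 0 at an unadjusted p under 0.05. At an unadjusted p under 0.05 by edgeR, 1 U was higher in response and 7 U and 3 other bases lower in the knockdown line against coverage, and 1 U was higher and 4 U and 2 other bases lower by library total. The lowest p was at the RPS10 U described above, with a difference of -1.26 ± 0.33 on the log2 scale and an unadjusted p by edgeR of 0.00755 (adjusted p 1). A U of RPS3 at 75404086 had 3.08% and 2.85% against 10.6% and 11.9% in HCT116 and 5.75% and 4.86% against 6.06% and 8.29% in the knockdown line, a difference of -1.44 ± 0.37 (unadjusted p by edgeR 0.0122, adjusted 1). Both RPS10 and RPS3 had higher untreated ratios in the knockdown line than in HCT116.

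A U of RPS27 read higher with Terminator in the knockdown line. Over the 312 tested U the median difference in response was -0.06 on the log2 scale, and the U described here were picked after their values were seen. The RPS27 U at 153991591 read 2.50% and 3.55% untreated and 15.2% and 18.3% with Terminator, above the HCT116 values at the same treatment. A U of RPS3A at 151103031 read 2.17% and 1.70% against 19.7% and 9.78%, where HCT116 had 4.91% and 1.55% against 11.6% and 6.43%. With Terminator the lines overlapped at this RPS3A U, which passed the filter through the Terminator libraries alone. At the RACK1 U 181243777 the knockdown values given above, 14.4% and 8.02%, were below those of HCT116, and another U of RPS27, at 153991620, had a difference of -1.45 ± 0.43 (unadjusted p by edgeR 0.0211). None of these differences between the lines was called.

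The levels of the mRNAs were approximated by covering reads of the untreated libraries, summed per gene over positions listed in all 4 Terminator tables. In these bulk libraries fewer cells and less RNA per cell cannot be told apart. None of the 29 genes was called by edgeR (adjusted p under 0.05), beside 0.139% of 2158 genes called higher and 0.556% lower, and DESeq2 called 0. At an unadjusted p under 0.05, 1 gene was higher and 0 lower. The log2 differences, knockdown minus HCT116, ran from -0.07 in RPS15 to 0.33 in RACK1, with a median of 0.09 against 0.00 over all genes.

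RACK1 had 10024 and 14770 covering reads in HCT116 and 14167 and 18133 in the knockdown line, or 368 and 472 against 479 and 615 when scaled to 1 M reads of the library total. On that scale the groups did not overlap, with the upper HCT116 library close to the lower knockdown one, and the log2 difference was 0.33 ± 0.13 (adjusted p by edgeR 0.483). RPS3A (0.19 ± 0.12) and RPS15A (0.19 ± 0.14) followed at the upper end, and RPS15 (-0.07 ± 0.12), RPS26 (-0.02 ± 0.14) and RPS21 (-0.01 ± 0.12) stood at the lower end. The large-subunit mRNAs had 1 of 46 called higher, with a median of 0.07, and the further 5′ terminal oligopyrimidine mRNAs 0 of 11, with 0.01.

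**Figure D4:**
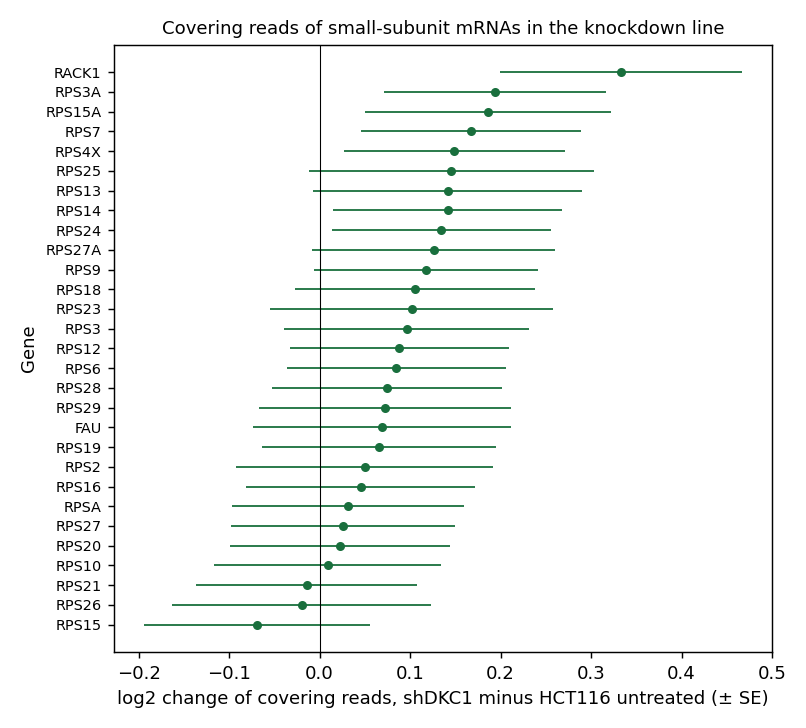
Log2 difference of summed covering reads, knockdown minus HCT116, untreated libraries, for each small-subunit gene (point) with its SE (bar). Values run from -0.07 in RPS15 to 0.33 in RACK1, and none was called.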

How the data were processed

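The deposited tables of stop reads were read for 29 genes in 16 libraries from 3 cell populations. Per the submitters' processing notes, trimming used cutadapt 2.8 and alignment used STAR and hg38; the version of STAR is not given in the sources used here. In the Terminator tables of HCT116 and the knockdown line the deposited stop and covering reads are whole counts. In the other tables the deposited values are expected counts with fractions, rounded here for edgeR and DESeq2. The authors also deposited the stop fraction and stop RPM. Counts divided by RPM gave the library totals.

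Positions listed in every table of a fit, with 10 or more stop reads in 2 or more libraries, were fitted with edgeR 4.0.16 (glmQLFit, glmQLFTest) in R 4.3.3 over the whole table, and the Benjamini-Hochberg adjustment spanned every tested position. Fits were offset by library total or by log covering reads, with the replicate number as a block, since a replicate in the submitters' design is a pair of libraries with and without CMC. Same-numbered libraries correlated at 0.18 to 0.38 in their deviations from group means. The level fit used TMM and no block. In simulated data by library total, 85% to 89% of positions changed 2-fold had an adjusted p by edgeR under 0.05. In the level fit 71% of genes did. The changed positions were drawn from those with more stop reads than the set's medians. The 2-fold change that a call also needs was not required there, so the share that would be called was not measured. Recovery against coverage was not simulated. Gene regions came from GENCODE 29, which held the transcript version of 96.3% of position and transcript pairs. A few positions (4, 9 and 16 in the 3 fits) carry the same counts as another position of the set.

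Members, lists and tests were chosen with earlier results of these data known. For each comparison the named positions were the 8 largest changes among those called (at most 2 a gene), and for each gene the U and the base with the highest stop ratio. The examples described were taken from these after their values were seen. The comparison of HCT116 with CMC alone used the untreated HCT116 libraries as counted, in fractions, in its own tables. Alternatives tried were TMM, DESeq2, other filters, fits without the block and each library left out.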

Additional observations from a re-analysis of the deposited data

How the results depend on the processing

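Among the named positions, taken from the largest called changes, and for the RACK1 level, no direction reversed. Other called positions were not checked for this. By library total the balance of calls did change with the scaling: in HEK293T TMM and DESeq2 each called more positions lower than higher. DESeq2, with its own size factors, called 5 positions of the set higher and 1 lower in HCT116, 1 and 2 in HEK293T, 6 and 3 in the knockdown line and 0 and 2 for Terminator against CMC in HEK293T (over all positions, 6.16%, 1.52%, 6.49% and 0.668% higher); TMM called 57, 2, 51 and 1 higher. Keeping only positions whose 31 bases no other listed gene has, chosen after seeing the data, left 127 called against coverage and 71 by library total in HCT116, 52 against coverage in HEK293T, and 98 and 62 in the knockdown line, with fewer positions tested. A replicate block called 1 gene level, RACK1, with a log2 difference of 0.34 and an adjusted p by edgeR of 0.000238 (the labels pair no HCT116 library with a knockdown one); fits of stop reads without the replicate block moved no count over 1.5 times (266 in HCT116 and 87 in HEK293T against coverage). Leaving out 1 library at a time gave 160 to 230 and 86 to 117 calls in HCT116 (against coverage, then by library total), 14 to 69 and 62 to 75 in HEK293T, 1 to 14 and 13 to 39 for Terminator against CMC, and 130 to 159 and 72 to 90 in the knockdown line. In HEK293T against coverage, 14 remained without CMC and Terminator replicate 2, 17 without untreated replicate 2 and 37 without untreated replicate 1, and 1 for Terminator against CMC without replicate 2 of either group. In HCT116 against coverage, 160 were called without CMC and Terminator replicate 2 and 176 without untreated replicate 2. The knockdown line had 130 without replicate 1 of CMC with Terminator. By library total HCT116 had 86 without untreated replicate 2, HEK293T 62 and 75 without untreated replicate 1 and 2 and 69 and 66 without replicate 1 and 2 of CMC with Terminator, and Terminator against CMC 13 without CMC replicate 2 and 34 and 29 without replicate 1 and 2 of CMC with Terminator. The comparisons with 0 calls had 0 to 0, except CMC alone in HCT116 against coverage, an added fit, which had 0 to 1 (1 without untreated replicate 1). With 2 libraries a group and medians of 6 to 14 stop reads a position precision was limited, and recovery of changes under 2-fold was not simulated.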
